A study of Mus musculus with 24 samples.

Results

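The microRNA content of normal soleus was read from the 6 non-transgenic mice of the study, of 12 mice in all. The members were chosen by genotype label alone, and their RNA filled 12 of the 24 deposited cards. Soleus is a hindlimb postural muscle built largely of oxidative fibres, many of them slow-twitch. All 6 animals were male, 12 weeks old, untreated as far as the labels say, and called wild-type. They formed 2 groups of 3: NTGa, littermates of the MCK-PPARa mice, and NTGb, littermates of the MCK-PPARb mice. In those transgenic lines the muscle creatine kinase (MCK) promoter drives PPARa or PPARb, nuclear receptors of fatty acid metabolism, in muscle. The non-transgenic littermates carry neither transgene. The labels call the replicates biological. Whole muscle was extracted, so vessels, blood and connective tissue contribute RNA beside the fibres, and fewer cells of a type and less RNA per cell cannot be told apart.

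A microRNA is a short RNA that guides a silencing complex to messenger RNAs, mainly through its seed, a run of bases near the 5′ end. MicroRNA families share a seed, and many are cut from neighbouring hairpins of one transcript. Striated muscle is known for a small set of its own: miR-1 and miR-133a are made together in heart and skeletal muscle, miR-206 and miR-133b belong to skeletal muscle, and miR-499 and miR-208b lie in introns of myosin heavy chain genes and serve the slow fibre programme.

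Each RNA was run by real-time PCR on 2 cards of 384 wells. There were 375 microRNA assays on card A and 209 on card B, the latter including most of the asterisk forms, the names then given to the less abundant arm of a hairpin. The value is the Ct, the cycle at which the fluorescence crosses a threshold. A Ct lower by 1 stands for one doubling of the template if the template doubles in every cycle. An assay counted as detected in an animal when its Ct was under 35, and a well with no Ct had not crossed the threshold within 40 cycles. The share of an assay is its signal, 2 to the power of minus Ct, as a percent of the summed signal of all microRNA assays on that card in that animal. No calibration between assays was available here, so ranks and shares order signals, not numbers of molecules.

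The leading microRNAs with a sequence are shown first, beside relatives of the same seed, some of which, such as miR-15a and miR-29b, were read at far later cycles. Sequences are RefSeq mature forms on GRCm38.p6, 5′ to 3′, with bases 2 to 8, the seed, in capitals. Of 57 microRNAs looked up, 42 had a sequence that could be printed.
miR-206: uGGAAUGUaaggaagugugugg
miR-133b: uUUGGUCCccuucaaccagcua
miR-126-3p: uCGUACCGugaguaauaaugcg
miR-24: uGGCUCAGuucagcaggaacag
miR-16: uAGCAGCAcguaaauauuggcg
miR-195: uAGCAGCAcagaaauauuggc
miR-15a: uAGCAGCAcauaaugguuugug
miR-29a: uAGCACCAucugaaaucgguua
miR-29c: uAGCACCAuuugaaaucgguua
miR-29b: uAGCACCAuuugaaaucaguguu
miR-30c: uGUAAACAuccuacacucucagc
miR-30e: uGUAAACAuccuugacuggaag
miR-30a: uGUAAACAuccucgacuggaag
miR-26a: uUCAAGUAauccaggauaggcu
miR-26b: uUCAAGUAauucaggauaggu
miR-30a*: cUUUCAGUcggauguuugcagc
miR-30e*: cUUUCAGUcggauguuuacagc
The miR-16, miR-29, miR-30 and miR-26 groups each carry their seed in every member shown. The asterisk forms of miR-30a and miR-30e share a seed of their own, UUUCAGU, and differ by G18A, counted from the 5′ end with miR-30a* first.

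The sequences of low or undetected relatives are given for contrast, since close relatives of one another differed in detection.
miR-499: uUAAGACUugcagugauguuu
miR-208b: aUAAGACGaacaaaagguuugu
miR-208: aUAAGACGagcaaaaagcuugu
miR-99b: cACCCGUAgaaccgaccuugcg
miR-99a: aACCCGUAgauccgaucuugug
miR-100: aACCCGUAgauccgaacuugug
miR-291a-3p: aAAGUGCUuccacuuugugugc
miR-294: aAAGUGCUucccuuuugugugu
miR-295: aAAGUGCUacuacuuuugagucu
miR-302b: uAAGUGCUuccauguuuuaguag
miR-302d: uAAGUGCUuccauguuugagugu
The last 5 share the seed AAGUGCU, which marks microRNAs of early embryonic cells. The heart form miR-208 and the slow-muscle form miR-208b share UAAGACG and differ at 3 bases of 22.

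Over both cards, the 6 animals had 248 to 296 assays detected each, with a mean of 270.5 ± 16.3 (SD, n = 6) of 584. On card A the counts were 190, 187 and 179 in NTGa-1 to NTGa-3 and 176, 202 and 173 in NTGb-1 to NTGb-3. On card B they were 89, 85 and 88, then 85, 94 and 75. NTGb-2 stood highest on both cards. It alone detected 16 of the 33 card A assays found in 1 animal, and on card A it was the farthest from the rest: the median absolute difference in centred Ct was 0.53 to 0.64 in pairs of animals that include NTGb-2 and 0.27 to 0.52 in the other pairs. On card B these ranges overlapped, at 0.37 to 0.60 and 0.37 to 0.63. Centred Ct is the Ct minus that animal's mean over the assays of the card detected in all 6. Without NTGb-2 the card A mean was 181 ± 7.25 (SD, n = 5) against 184.5 ± 10.7 (SD, n = 6) with it, and on card B 84.4 ± 5.55 against 86 ± 6.32.

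Most assays were detected either in every animal or in none. Of the 584 assays, 222 (38.0%) were detected in all 6 animals, 252 (43.2%) in none, and 110 (18.8%) in 1 to 5. Card A had 157 of 375 (41.9%) in all 6 and 148 in none, and card B 65 of 209 (31.1%) and 104. No Ct at all was recorded in any animal for 96 assays of card A and 64 of card B.

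**Figure D1:**
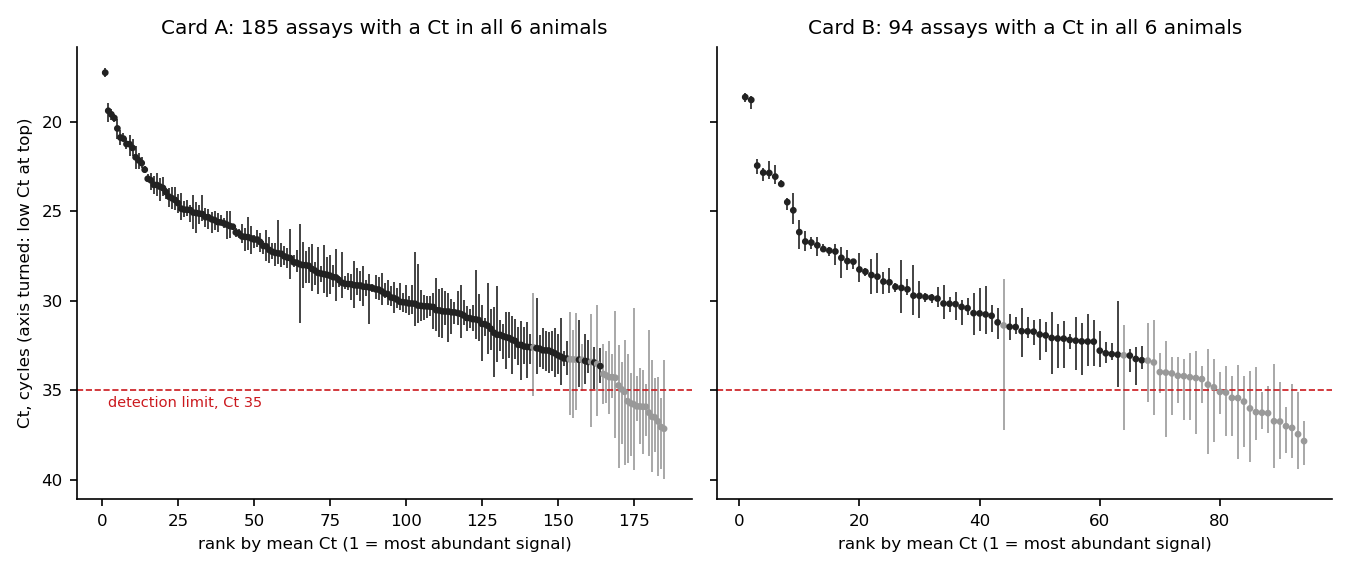
Mean Ct (points) and range over the 6 non-transgenic animals (lines) of every assay with a Ct in all 6, ranked within card A and card B, with the Ct axis turned so that abundant signals are at the top. Black marks assays detected in all 6 animals and grey the others; card A descends evenly after its first assay, card B falls by 3.67 cycles after its first pair, and the ranges widen toward the dashed limit at Ct 35.

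Muscle microRNAs headed both cards. miR-133a, a microRNA of heart and skeletal muscle, had the lowest Ct of card A in every animal. Its Ct was 17.32, 16.98 and 17.25 in the NTGa animals and 17.37, 17.52 and 17.17 in the NTGb animals. The groups overlapped and the whole range was under 1 cycle. miR-133a held 41.2% ± 3.69 (SD, n = 6) of the card A signal, and the next assay followed 2.13 ± 0.337 cycles later.

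The name miR-1, of a microRNA that promotes muscle differentiation, was carried by 2 assays. Their target sequences were not compared here, so whether both read the same RNA was not checked. The rat-named assay had rank 2 on card A at a mean Ct of 19.39, with a lowest, median and highest Ct of 18.97, 19.31 and 20.01. The mouse-named assay had rank 6 at 20.89, ranging from 20.47 to 21.32 around a median of 20.90. The mouse-named assay was later by 1.49 ± 0.121 cycles (SD, n = 6), although both carry the name miR-1. The 3 NTGa animals were below the 3 NTGb animals in both assays. The mouse-named assay held 3.37% ± 0.465 of the signal, and the rat-named assay 9.48% ± 1.33.

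miR-133b had rank 7, at a mean Ct of 20.95 and 3.21% ± 0.210 of the card. Its hairpin lies 3686 bases from that of miR-206, inside the noncoding transcript Lincmd1, at chr1:20682834-20682855 (GRCm38.p6, plus strand). The miR-206 form is at chr1:20679055-20679076 on the same strand.

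miR-206 and miR-378 together held 84.8% ± 2.10 (SD, n = 6) of the card B signal. miR-206, known in regenerating and slow muscle, had Ct values of 18.69, 18.79 and 18.90 in NTGa and 18.39, 18.49 and 18.52 in NTGb. miR-378, encoded in the gene of the mitochondrial coactivator PGC-1β, had 18.56, 18.70 and 18.57 in NTGa and 18.83, 18.75 and 19.30 in NTGb. The leader differed between the groups: miR-378 was ahead in the 3 NTGa animals and miR-206 in the 3 NTGb animals. The mean gap was 0.16 ± 0.415 cycles, less than its SD. Over the 6 animals miR-206 held 44.7% ± 6.94 of the card and miR-378 40.1% ± 5.19.

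**Figure D2:**
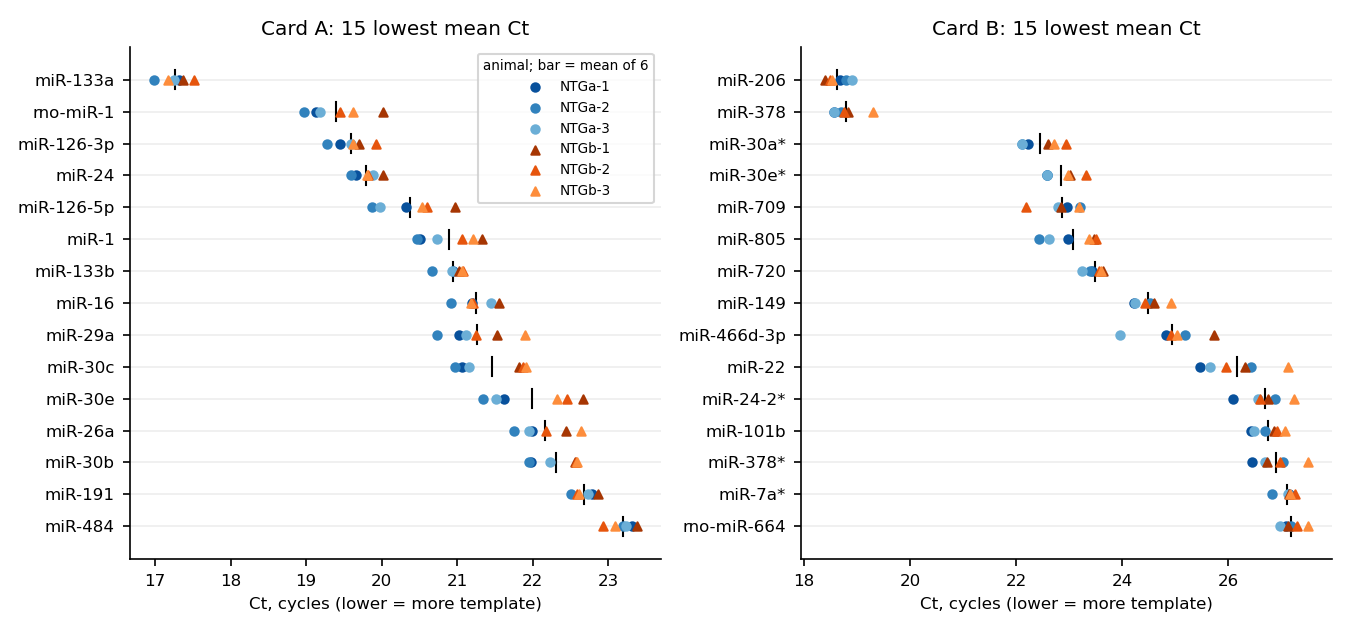
Ct in each animal for the 15 assays of lowest mean Ct on each card, with NTGa animals as blue circles, NTGb animals as orange triangles and the mean of 6 as a bar. miR-133a stands alone on card A, and miR-206 and miR-378 together on card B. Of these assays, 10 on card A and 6 on card B lie at lower Ct in all NTGa than in all NTGb animals. Among all assays detected in all 6 animals the shares are 22.9% and 20%. The reverse holds for miR-206 alone. After centring each animal on its card, miR-30c and miR-30e alone are lower in all NTGa animals.

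The other slow-fibre and muscle microRNAs were present at far later cycles. miR-486, which lies in an ankyrin gene active in muscle and red cells, had Ct values of 23.69 to 24.31 around a median of 23.91. miR-499, in an intron of Myh7b, ranged from 27.46 to 28.09 around 27.89, and held 0.0278% ± 0.00834 of the card. miR-208b, in an intron of the slow myosin gene Myh7, ranged from 31.13 in NTGb-3 to 34.40 in NTGa-3, around 32.27. Its spread was large: the centred Ct had an SD of 1.26 cycles. All 7 assays of the muscle list were detected in all 6 animals, where 38.0% of all 584 assays were. The 6 of them on card A, with the mouse-named miR-1, held 48.2% ± 3.38 of its signal, and the single one on card B was miR-206.

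The heart form miR-208, in an intron of Myh6, was a bare trace. It had no Ct in the NTGa animals and Ct values of 36.16, 37.30 and 34.50 in NTGb-1 to NTGb-3, so 1 animal counted as detecting it.

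The endothelial microRNA miR-126, from an intron of Egfl7 at chr2:26591402-26591423 (GRCm38.p6, plus strand, 3p arm), took ranks 3 and 5 on card A. Its 3p arm ranged from 19.27 to 19.93 around a median of 19.61, and its 5p arm from 19.88 to 20.97 around 20.43. The 3p arm was earlier in all 6 animals, by 0.79 ± 0.308 cycles. Both arms together held 13.0% ± 0.679 of the card A signal, with 12.8% to 13.8% in the 5 other animals and 11.8% in NTGb-2.

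miR-24, a member of the miR-23, miR-27 and miR-24 clusters, had rank 4 at 19.80 ± 0.149 cycles (SD, n = 6), with a range of 19.60 to 20.01. It is made from hairpins on chr8 and chr13, each with a miR-23 and a miR-27 beside it. These neighbours did not come at like cycles. On chr8 the hairpin of miR-27a lies 56 bases from that of miR-24-2, and miR-27a was read at 25.33 against 19.80 for miR-24. miR-23a, 79 bases from miR-27a, was read at 35.72 and detected in 3 of 6 animals. In the chr13 copy miR-27b was at 26.24 and miR-23b at 28.67, both detected in all 6.

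The repressors of collagen genes, miR-29a and miR-29c, were read at 21.26 and 23.27. These differ by C10U alone. The other member, miR-29b, was read at 30.08, although its hairpins lie beside both others. The 3 held 3.28% ± 0.559 of card A. miR-16, which restrains the cell cycle, had rank 8 at 21.25 ± 0.226, and its relatives of the same seed were later: miR-195 at 23.63, miR-497 at 28.31, miR-322 at 28.55, miR-15b at 30.27 and miR-15a at 31.08. miR-15a lies 54 bases from a miR-16 hairpin and came 9.83 ± 0.910 cycles after miR-16, which has hairpins at 2 sites.

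The miR-30 family, which is broadly expressed and high in heart and muscle, was detected whole: miR-30c at 21.46, miR-30e at 21.99, miR-30b at 22.31, miR-30a at 24.28 and miR-30d at 25.50. Its 5 assays held 5.59% ± 1.01 of card A. The summed share was 6.28% to 6.75% in the NTGa animals and 4.43% to 4.89% in the NTGb animals, so the groups did not overlap. miR-30c was 21.06 ± 0.0955 in NTGa and 21.87 ± 0.0477 in NTGb (SD, n = 3 each), and miR-30e 21.49 ± 0.147 and 22.48 ± 0.175.

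That order ran through the leading assays. Of the 15 leading assays of card A, 10 had all 3 NTGa animals at lower Ct than all 3 NTGb animals, and none had the reverse. Among the 157 assays detected in all 6, the same separation held for 22.9% with NTGa lower and 3.82% with NTGb lower. After centring each animal on its card, the leading assays with NTGa lower came to 2, miR-30c and miR-30e, against 12.7% of the 157, and none with NTGb lower, against 7.64%. On card B, 6 of 15 were lower in NTGa (20% of 65) and 1, miR-206, in NTGb (6.15%). After centring these were 0 with NTGa lower (9.23% of 65) and 1, miR-709, with NTGb lower (7.69%). The mean Ct over the assays detected in all 6 was 28.06 ± 0.113 in NTGa and 28.36 ± 0.511 in NTGb on card A. No test between these groups was made, and litter, line and any difference in RNA input cannot be told apart.

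miR-26a and miR-26b, which lie in introns of the Ctdsp phosphatase genes, were read at 22.16 and 23.54 and held 1.94% ± 0.273. miR-191 had rank 14 on card A at 22.68 and miR-484 rank 15 at 23.19. miR-425, whose hairpin is 384 bases from that of miR-191, was read at 32.60 and detected in 5 of 6 animals.

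After its leading pair, card B dropped by 3.67 ± 0.293 cycles to miR-30a* at 22.45, followed by miR-30e* at 22.84, miR-709 at 22.87, miR-805 at 23.07, miR-720 at 23.48 and miR-149 at 24.49. The miR-720 entry was later withdrawn as a piece of a transfer RNA. miR-30a* and miR-30e* kept their order in all 6 animals, 0.39 ± 0.0834 cycles apart. miR-709 ranged from 22.20 in NTGb-2 to 23.22 in NTGa-2 and changed places with its neighbours. miR-149, from an intron of Gpc1 at chr1:92850381-92850403 (GRCm38.p6, plus strand), had the smallest spread of the card, with an SD of centred Ct of 0.105. miR-466d-3p followed at 24.95, with 23.97 in NTGa-3 and 25.74 in NTGb-1 at its ends, and miR-22 at 26.17.

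Signal was concentrated in few assays. On card A, 2 to 3 assays made up 50% of an animal's signal, 13 to 18 made up 90% and 49 to 66 made up 99%. On card B it took 1 to 2, 3 to 5 and 14 to 19. The 10 leading assays held 84.9% ± 1.70 of card A and 98.2% ± 0.242 of card B (SD, n = 6). The 4 assays of card A with a mean Ct below 20 held 66.0% of its signal, whereas the 68 assays between 25 and 30 held 3.74%. Most detected assays thus lay in a range that adds little to the sum, and the 39 assays between 32 and 35 held 0.0401%.

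**Figure D3:**
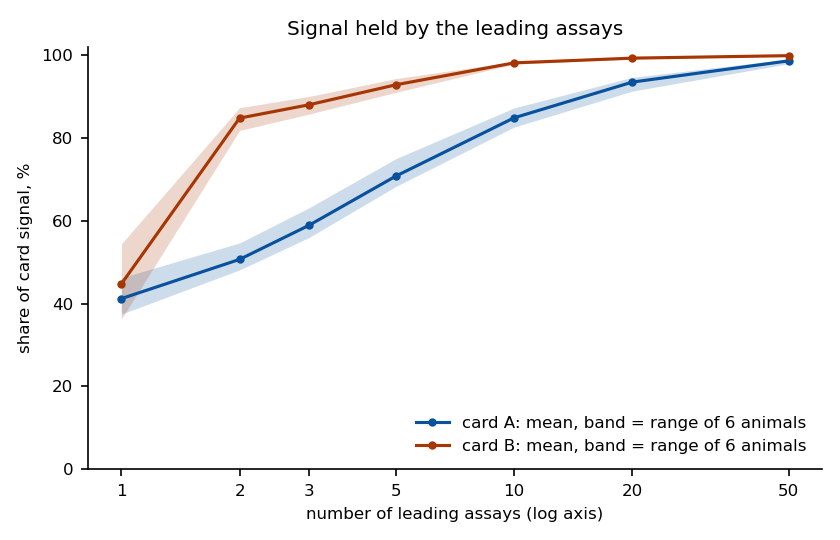
Percent of the card signal held by the 1 to 50 leading assays (log axis), as the mean of 6 animals with a band from the lowest to the highest animal. Card B reaches 84.8% with 2 assays, and card A reaches 84.9% with 10.

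How far the ranking can be read depends on the gap between neighbours. Among the 15 leading assays, 8 of 14 neighbouring pairs kept their order in all 6 animals on card A and 6 of 14 on card B. On card A the kept pairs included miR-133a before the rat-named miR-1, miR-24 before miR-126-5p, and miR-191 before miR-484. miR-16 and miR-29a differed by 0.0093 ± 0.374 cycles and held the order of their means in 2 of 6 animals, so they were not separable. Nor were the mouse-named miR-1 and miR-133b separable, which differed by 0.062 ± 0.261 and held their order in 4 of 6 animals. On card B miR-30e* and miR-709 differed by 0.021 ± 0.620 and also held it in 4 of 6.

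The spread over animals was small for abundant assays and grew with Ct. The median SD of centred Ct was 0.435 cycles on card A and 0.443 on card B over the assays detected in all 6. It was 0.334 between Ct 20 and 25, 0.653 between 30 and 32, 0.997 between 32 and 35, and 1.77 between 35 and 40 on card A. Duplicate wells, which were on card B, widened in the same way, from a median difference of 0.0575 cycles below Ct 25 to 0.749 between 32 and 35. These medians cover the 424 pairs of wells with both read. A further 99 of the 900 pairs had 1 empty well and lie outside them. The steadiest assay of card A was miR-19b, of the miR-17-92 cluster, with an SD of 0.0960, followed by miR-92a and let-7d, both at 0.137.

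miR-135b was the most variable assay of card A detected in all 6, with an SD of centred Ct of 2.23. Its Ct was 25.70 to 26.05 in NTGa and 31.25, 27.92 and 30.82 in NTGb. The groups did not overlap, and every NTGb animal was later by more than 1 cycle than every NTGa animal. On card A, 21 of the 157 assays had group means of centred Ct 1 cycle or more apart, among them miR-135b, miR-31, miR-379 and miR-208b, and 99 were within 0.5. On card B these counts were 10 and 36 of 65. Single animals weighed on some of the gaps on card A. The centred Ct of miR-31 and miR-379 was lower in NTGb-2 than in every other animal by over 1 cycle. That of miR-208b was higher in NTGa-3, and lower in NTGb-3, than in every other animal by over 1 cycle.

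**Figure D4:**
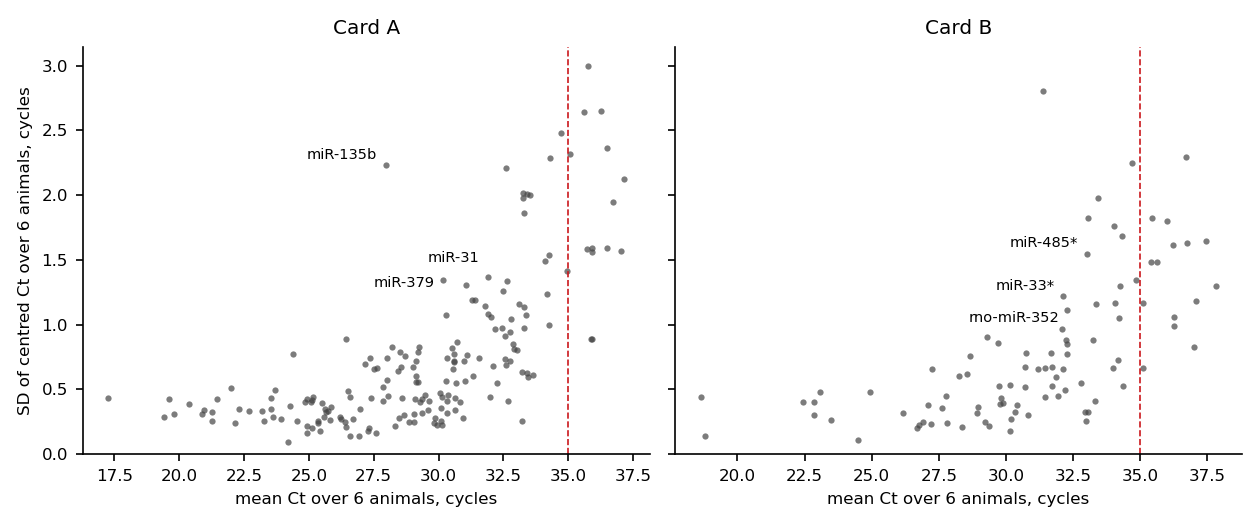
SD of centred Ct over the 6 animals against mean Ct for every assay with a Ct in all 6, by card, with the 3 most variable assays detected in all 6 named. The cloud rises toward the dashed limit at Ct 35, and miR-135b stands above assays of like Ct at 2.23 cycles.

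MicroRNAs of other cell types in the muscle were present at middle cycles. The leukocyte list had 5 of 6 assays detected in all 6 animals, led by miR-150 of lymphocytes at 23.70, with miR-146a at 24.94, the myeloid miR-223 at 25.82, miR-155 at 25.86 and miR-142-3p at 28.60. It summed to 0.924% ± 0.0694 of card A. miR-451 of red cells was read at 29.37, from 28.65 to 29.94, at 0.00958% of the signal. The smooth muscle and fibroblast list also had 5 of 6, with miR-145 at 23.52, miR-199a-3p at 25.08, miR-143 at 25.60, miR-214 at 27.35 and miR-21 at 27.62. Its sum was 1.31% in NTGb-2 and 0.627% to 1.10% in the other 5 animals, so NTGb-2 was the highest. The part of such cells in the distance of NTGb-2 from the rest on card A was not tested.

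Markers of nerve and epithelium were detected in part. Fewer of them were detected in all 6 animals than the 41.9% of all card A assays, with 2 of 7 and 2 of 10, and fewer were detected in none than the 39.5% of card A, again with 2 of each. In the neural list miR-138 at 27.52 and miR-128a at 29.14 were detected in all 6 animals, and miR-137 and miR-219 in none. The neuronal miR-124 and miR-9 had mean Ct values of 36.24 and 35.60 but were detected in 2 and 3 animals. In the epithelial list miR-203 at 28.47 and miR-182 at 33.29 were detected in all 6 animals. A further 6 of its 10 assays were detected in 1 to 5, and miR-183 and miR-205 in none. Markers of liver and pancreas were nearly all undetected. The hepatocyte microRNA miR-122 had no Ct in any animal. Of 4 pancreas assays, miR-375 had 1 Ct of 33.96, in NTGa-3, and miR-216a, miR-216b and miR-217 were detected in none. The epithelial miR-200a and miR-96 had a single Ct each, 27.37 in NTGa-2 and 28.17 in NTGa-1, and no Ct in the other 5 animals.

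Broad families were detected in full or nearly so. The let-7 family, which marks differentiated tissue, had 9 of 9 assays in all 6 animals, from let-7g at 24.55 to miR-98 at 32.08, but summed to 0.675% ± 0.138 of card A. The miR-17-92 and paralogous clusters had 10 of 13, led by miR-19b at 24.19 and miR-17 at 24.92. miR-18a was detected in 4 animals, and miR-18b and miR-363 had no Ct. The miR-148 and miR-152 family had 3 of 3 and the miR-130 and miR-301 family 4 of 4, at Ct 27.59 to 33.36 and 28.99 to 32.46. Of the miR-181 family 2 members were on the cards, miR-181a at 31.98 and miR-181c at 33.21. Overall 11 of the 33 lists had every member on the cards detected in all 6 animals. For comparison, 38.0% of all assays were detected in all 6 and 43.2% in none.

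Several families were split between close relatives. miR-99b was detected in all 6 animals at 29.84, whereas miR-99a and miR-100 were detected in none. The rat-named assay for the other arm, miR-99a*, was detected in 5 animals at a mean Ct of 34.01. Whether the miR-99a assay reads its target was not tested. miR-99a and miR-100 differ from one another by U16A alone and from miR-99b at 4 of 22 bases. Their neighbours were present: let-7c, 656 bases from miR-99a, at 27.27, and let-7e, 94 bases from miR-99b, at 25.34, with miR-125a-5p at 26.40. miR-10b was read at 28.70 in all 6 while miR-10a had a mean Ct of 35.90 and passed the limit in NTGa-2 alone. miR-222 was detected in all 6 at 25.17 and miR-221 in 5 at 33.27. Over card A, 502 pairings of assay hairpins lay within 10 kb. A pair of assays counted once for each such pairing, so miR-467a and miR-669a, with many hairpins, counted many times. In 16.1% of these pairings both assays were detected in all 6, in 17.3% both in none, and in 29.9% 1 was in all 6 and the other in none. Among all pairs of the same 312 assays, each counted once, the shares were 20.9%, 12.4% and 32.4%. Where both were detected in all 6, the median absolute Ct difference was 2.44 cycles in close pairs and 3.40 in all pairs. Close pairs were counted by hairpin and all pairs once by assay, so neither the shares nor the medians can be compared directly. Pairs of 1 cluster also share assays, and no test was made.

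Families known from early embryo and germ line were largely undetected in soleus, where 43.2% of all 584 assays were detected in none of the animals. Of the 11 assays for the miR-290 to miR-295 cluster on chr7, none was detected in any animal and 9 gave no Ct at all. The members miR-291a-3p, miR-294 and miR-295 share the seed AAGUGCU with miR-302b and miR-302d, shown above. In the miR-302 and miR-367 cluster on chr3, 4 of 5 assays were detected in none, and miR-302b had 1 Ct, 33.77, in NTGa-1. The X-linked testis cluster had 15 of 17 assays detected in none, 11 of them with no Ct, while the rat-named miR-463 was read at 32.27 in all 6 and miR-741 at 33.41 in 5. Related assays outside that list were also read. miR-470* was detected in 4 animals, miR-881* in NTGa-2 alone and the rat-named miR-743a in NTGa-3 alone. Beside miR-122 and the miR-290 to miR-295 cluster, a list of which only miR-327 was on the cards had no member detected. Its Ct was 37.38 to 38.66 in 4 animals.

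Large clusters were present in part. The imprinted Dlk1-Dio3 cluster, active in embryo, brain and muscle precursor cells, had 18 of 47 assays detected in all 6 animals, 13 in 1 to 5 and 16 in none, close to the division of all 584 assays, of which 38.0% were detected in all 6. Its earliest were miR-434-3p at 28.01, miR-411 at 28.05, miR-539 at 28.22 and miR-127 at 28.51. On card A, 26 of its 44 assays were detected in NTGb-2 and 18 to 21 in the other 5 animals, and its summed share was 0.298% in NTGb-2 and 0.0775% to 0.231% in the others. Of the 17 on card A detected in all 6, 8 had their lowest centred Ct in NTGa-3 and 6 in NTGb-2. The Sfmbt2 intron cluster had 2 of 13 in all 6, miR-466d-3p and miR-467a at 32.77.

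**Figure D5:**
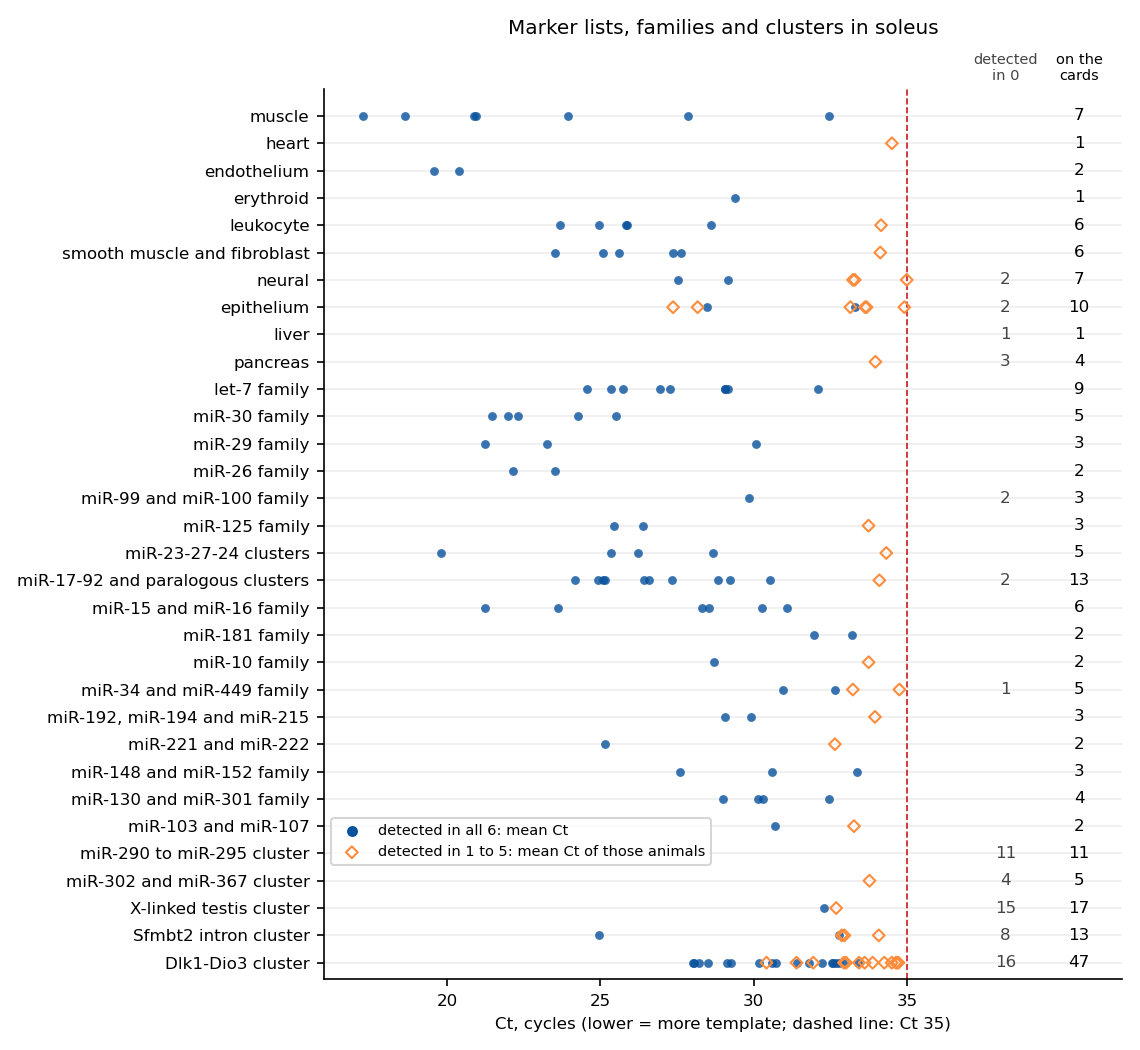
Mean Ct of each assay in the marker lists, families and clusters, 1 line per list, with filled points for assays detected in all 6 animals and open diamonds for those detected in 1 to 5, placed at the mean of those animals. The columns at the right give how many assays were detected in none and how many were on the cards; the muscle and endothelial lists hold the lowest Ct values, and the miR-290 to miR-295 line is empty with 11 of 11 detected in none.

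The 2 arms of a hairpin were compared where both were on the cards. Where the arms sat on different cards, differences were corrected in that case by the median offset of the 5 control assays shared by both cards, which was -0.25 to 0.29 cycles. Of 121 asterisk assays with a partner, 29 had both arms detected in all 6 animals, and in those the asterisk arm was later by a median of 2.38 cycles. In 32 the partner was detected in all 6 and the asterisk arm in none. miR-24-2* was 6.92 ± 0.308 cycles after miR-24 and miR-378* 8.12 ± 0.187 after miR-378. In 7 of the 29 the asterisk arm had the lower mean Ct, and in 4 of these in every animal: miR-30a* by -1.80 ± 0.235, miR-467a* by -4.49 ± 1.15, miR-503* by -2.33 ± 1.26 and miR-872* by -0.94 ± 0.366 cycles. miR-7a* was detected in all 6 at 27.11, and miR-7a in 1. miR-199a-3p, at 25.08, was ahead of miR-199a-5p, read at 35.91 and detected in 2 animals.

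The same name did not always give the same value. Of 24 microRNAs with both a mouse-named and a rat-named assay on 1 card, 5 had both detected in all 6, with an absolute difference of 0.13 to 2.68 cycles and a median of 1.49. In 7 neither was detected, and in 3 the verdicts were opposite: miR-345-3p and miR-136* were detected in all 6 with the rat-named assay and in none with the mouse-named one, and miR-135a* the other way round. Where 1 of the pair was late, the gap could be larger: the mouse-named miR-532-5p was read at 28.44 and the rat-named at 37.14, and miR-28* at 30.41 and 36.72. Differences of several cycles between assays can thus occur under 1 name. Whether the mouse-named and rat-named assays of a name share a target sequence was not checked.

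Close to the limit, membership of the repertoire rested on small differences. The assays of mean Ct just under 35 on card A included miR-197 at 34.27 in 3 of 6 animals, miR-7b at 34.27 in 4 and miR-200c at 34.30 in 5, and those just over included miR-382 at 35.08 and miR-9 at 35.60, both in 3. On card B miR-133a* at 34.26 lay just under and miR-199b* at 35.09 just over.

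The 252 assays undetected in the 6 non-transgenic animals were looked up in the 6 transgenic animals. Of the 148 on card A, 24 were detected in 1 or more of these, and of the 104 on card B, 8, but none in all 6.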

How the data were processed

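Ct values of TaqMan microRNA cards were deposited by the authors, 1 value per well, per the file headers, in units of cycles with no normalization; the sources used here name neither threshold settings nor software. RNAzol B was used for extraction and PCR ran for 40 cycles, per the labels' protocols.

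Wells of 1 assay were averaged, and an empty well beside one with a Ct was set to 40. Control assays stayed out of ranks and shares: 5 on card A and 6 on card B. Signals assumed doubling in each cycle; no between-group test was made, and n counts animals. Depth has no counterpart in Ct values. Duplicate wells of 150 assays give the precision of a reading on card B only. The named microRNAs are the 15 of lowest mean Ct on each card, those of largest and smallest spread, those on either side of Ct 35, miR-687 for its detection in 1 transgenic group, and up to 6 members of lowest Ct in each list. Chosen after their values were seen were later or undetected list members, miR-7a, miR-425, miR-345-3p, miR-532-5p, miR-28*, miR-135a*, miR-136*, miR-467a*, miR-503* and miR-872*. The same holds for miR-99a*, miR-470*, miR-881* and the rat-named miR-743a. The members and lists were chosen with earlier results of these data known. Alternatives were Ct under 32, any Ct, empty wells ignored, mouse-named assays only, 1.9-fold growth per cycle, centred Ct and leaving out each animal. The steps were tested on simulated data and run in Python 3.11.15 with pandas 2.3.3 and numpy 2.4.6; figures used matplotlib 3.10.9.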

Additional observations from a re-analysis of the deposited data

Results flagged for a closer look

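Of 179 series of 6 animals tested, 9 had 1 animal set apart from the other 5 by more than Dixon's 95% limit for 6 samples. Chance marks about 1 in 20 such groups. Of the 9, 4 were in NTGb-2, 2 in NTGa-2, 2 in NTGb-3 and 1 in NTGa-3. In NTGb-2, miR-214 was read at 25.48 against 27.37 to 27.93 in the other animals, miR-222 at 24.11 against 25.30 to 25.53, miR-379 at 27.26 against 30.18 to 31.42, and the control RNA MammU6 on card B at 19.15 against 19.48 to 19.65. In NTGa-2, miR-133b was at 20.66 against 20.93 to 21.07 and miR-7a* at 26.82 against 27.13 to 27.27. In NTGb-3, miR-378 was at 19.30 against 18.56 to 18.83 and miR-692 at 37.90, later than the other 5, the earliest of which was 33.27. In NTGa-3, miR-700 was at 37.42 against 32.82 to 34.16.

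The transgenic animals are used here only to look up the 252 assays undetected in the 6 non-transgenic animals. Of these 252, miR-687 alone was detected in all 3 animals of a transgenic group. Its Ct was 31.99, 34.74 and 31.31 in the MCK-PPARa mice. All 6 non-transgenic animals had a Ct for miR-687, the lowest being 35.40. It was detected in 4 of the 6 transgenic animals, and the difference was not tested.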

How the results depend on the processing

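With empty wells ignored, 157 of the 158 named microRNAs kept their mean Ct within 1 SD, and miR-673-3p moved to 35.1. The lists with no member detected then fell from 3 to 2. Centring or leaving out 1 of 6 animals cannot by construction move a mean by 1 SD. Those alternatives therefore say nothing about how steady the named means are. Detection counts followed the limit. At Ct under 32, each animal had 138.5 (card A) and 53.2 (card B) assays detected, 119 and 43 were shared by all 6, and 6 lists had no member detected. With any Ct counted these were 223 and 121, 185 and 94, and 1 list. The 10 leading assays held 98.5% of card B with mouse-named assays only, and 81.1% of card A and 97.1% of card B with 1.9-fold growth. Leaving out each animal gave 181 to 186.8 assays per animal on card A and 84.4 to 88.2 on card B, 157 to 162 and 65 to 73 detected in all, and 3 to 4 lists with none detected, since miR-208, miR-302b and miR-375 each rest on 1 animal. It gave leading shares of 84.4% to 85.3% and 98.10% to 98.22%. Chosen after seeing the data, the same omission gave 7 to 9 and 5 to 7 kept orders and a median SD of 0.368 to 0.470 and 0.392 to 0.458 cycles. NTGa and NTGb were separate animals with no pairing given in the labels, and no test compared them. Differences between assays were taken within each animal.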

Other observations

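Detection in a single animal was not always a matter of the limit. On card A 33 assays were detected in 1 animal alone, at a median Ct of 33.95, and 5 of these had a Ct below 32. miR-200a was read at 27.37 in NTGa-2 and miR-96 at 28.17 in NTGa-1, each with no Ct in the other 5 animals. The others were miR-431 at 30.41, miR-370 at 31.39 and miR-434-5p at 31.94, which were all detected in NTGb-2 alone and all belong to the Dlk1-Dio3 list. miR-431 had a Ct in all 6 animals. These were chosen after their values were seen.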
